A study of Mus musculus with 12 samples.

Results

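Immediate early genes are transcribed within minutes of a stimulus, without new protein synthesis, and most of their mRNAs decay rapidly. In skin they respond to wounding, irritants, growth factors, ultraviolet light and mechanical handling, mostly through MAP kinases that activate serum response factor and its partners. Several of them encode subunits of AP-1, a dimer of Jun and Fos family proteins that controls keratinocyte proliferation and differentiation, and others encode inhibitors that end the response. Here 10 such genes were taken by symbol from the 23282 entries of the count data: Jun, Junb, Fos, Fosb and Atf3, whose proteins can enter AP-1 type dimers, the transcription factors Egr1 and Nr4a1, Ier2, and the inhibitors Dusp1 and Zfp36. All 10 were listed, and all 10 had enough counts to be tested.

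Skin RNA came from wild-type male C57BL/6J mice that were 5 weeks old at the start. AD-like lesions were induced in both groups with 0.5% 2,4-dinitrochlorobenzene (DNCB), a hapten that sensitizes the skin, applied 3 times a week for 6 weeks. The AD group (5 mice) received a standard diet, and the HF + AD group (7 mice, labelled AD+OB) received a diet with 60 kcal% fat for 10 weeks, of which 4 preceded DNCB. All mice were fasted for 12 h and anesthetized with tribromoethanol before the skin was taken and frozen. No mouse without DNCB is among these samples, so the levels describe lesional skin only. The interval between death and freezing is not given in the sources used here, and RNA integrity values were not used here. The part of tissue handling and of RNA integrity in the levels was not tested.

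Libraries were read from the 3′ end of each mRNA, with 1 library per mouse and between 9746937 and 13462434 counts per library. Between 13100 and 15063 entries had a read in each AD library and between 15522 and 16677 in each HF + AD library. From the share of genes at 0, each sequenced molecule was estimated to account for 12.01 to 32.2 counts in the AD libraries and for 3.86 to 7.29 counts in the HF + AD libraries. This corresponds to 333591 to 947473 estimated molecules per AD library and 1471431 to 3247092 per HF + AD library. By this estimate, sparse genes were measured less precisely in the AD group. Values are given in CPM (counts scaled to a common library size, with totals scaled by edgeR's TMM method) and compared as log2 fold changes of HF + AD over AD by edgeR's quasi-likelihood test, with p-values adjusted over all 14163 genes tested. Each of the 10 genes was also compared on the log2(CPM + 1) scale by an exact permutation test (two-sided, every way of dividing the 12 mice into 5 and 7), for which 0.00126 is the smallest p. Skin markers were present in all mice, with a summed level of basal and suprabasal keratinocyte markers of at least 3229 CPM.

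The promoters of the 3 genes on which the results turn or to which they are compared follow here: Junb, which was lower in HF + AD skin, Atf3, which had the highest fold change of the 10 but few counts, and Fos, the gene most often taken as the sign of this response. The sequences are the 250 bases before the RefSeq transcription start on GRCm38.p6, printed 5′ to 3′ on the strand of the gene. They lie at chr8:84978749-84978998 (minus strand) for Junb, chr1:191183334-191183583 (minus strand) for Atf3 and chr12:85473640-85473889 (plus strand) for Fos. Capitals mark TGACG on either strand, the core of the cAMP response element, and in Fos also the TATA box TATAAA.
Junb: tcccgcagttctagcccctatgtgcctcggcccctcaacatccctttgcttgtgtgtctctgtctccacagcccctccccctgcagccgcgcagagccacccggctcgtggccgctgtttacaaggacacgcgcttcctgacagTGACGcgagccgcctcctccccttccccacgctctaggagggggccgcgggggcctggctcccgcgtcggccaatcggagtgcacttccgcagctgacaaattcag
Atf3: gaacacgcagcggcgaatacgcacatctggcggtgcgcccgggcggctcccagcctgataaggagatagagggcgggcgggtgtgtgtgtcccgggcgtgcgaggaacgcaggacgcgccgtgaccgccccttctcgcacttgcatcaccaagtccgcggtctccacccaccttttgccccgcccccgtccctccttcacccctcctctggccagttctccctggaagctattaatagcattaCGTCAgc
Fos: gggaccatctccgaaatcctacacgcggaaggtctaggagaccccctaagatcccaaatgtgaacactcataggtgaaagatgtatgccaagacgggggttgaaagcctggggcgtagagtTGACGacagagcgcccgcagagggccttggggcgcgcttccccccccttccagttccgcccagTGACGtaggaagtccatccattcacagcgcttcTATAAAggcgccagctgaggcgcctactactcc

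RefSeq promoters of 8 of the 10 genes were searched on both strands, and those of Egr1 and Ier2 were not. Each search covered only a window before the start of the length given above. TGACG was found in 6 of them (Atf3, Fosb, Junb, Fos, Nr4a1 and Dusp1), against 17.8% of all 32851 promoter windows of this length. The whole element TGACGTCA, which contains this core, was found in Dusp1 alone of the 8, against 1.55% of all windows. The CArG box, the site of serum response factor, was found in Zfp36 alone of the 8, against 1.47% of all windows. Sites farther upstream or within the genes were not searched, so a window without this box does not show that the gene lacks one. TATAAA was found in Fos alone of the 8, against 12.4% of all windows. The AP-1 site TGANTCA and the Egr site GCGTGGGCG were found in 0 of the 8, against 6.75% and 0.536% of all windows. None of these shares was matched for base composition, and the windows printed above hold 58.4% (Fos) to 66.4% (Junb) G and C. The part of base composition in these counts was not tested. The match in Atf3 ended 2 bases before the start and that in Junb lay farther upstream, 101 bases before it. The Atf3 window lies inside the GENCODE span of the gene (191170296 to 191218039), so its start is not the outermost annotated one.

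Ier2 and Junb were lower in HF + AD skin, and no gene of the 10 was higher after adjustment (edgeR, adjusted p under 0.05). Such calls made up 9.2% of all genes tested, 4.77% in the lower and 4.43% in the higher direction. Ier2, Junb and Atf3 had an unadjusted p under 0.05 in edgeR's test, as 25.1% of all genes did, and an exact permutation p under 0.05, as 28.4% of all genes did. By sign, 6 of the 10 were lower, against 48.3% of all genes, and their median log2 fold change was −0.096, against 0.023 over all genes tested. The measured values of the groups did not overlap in 1 of the 10 genes, Atf3, against 5.46% of all genes (2.56% lower and 2.9% higher in HF + AD). Atf3 passed the filter on low counts only through the HF + AD group, and its AD values lie within the limits of detection described for it, so neither its values nor its p are read as a difference. The plot of levels in each mouse shows all 10 genes.

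**Figure D1:**
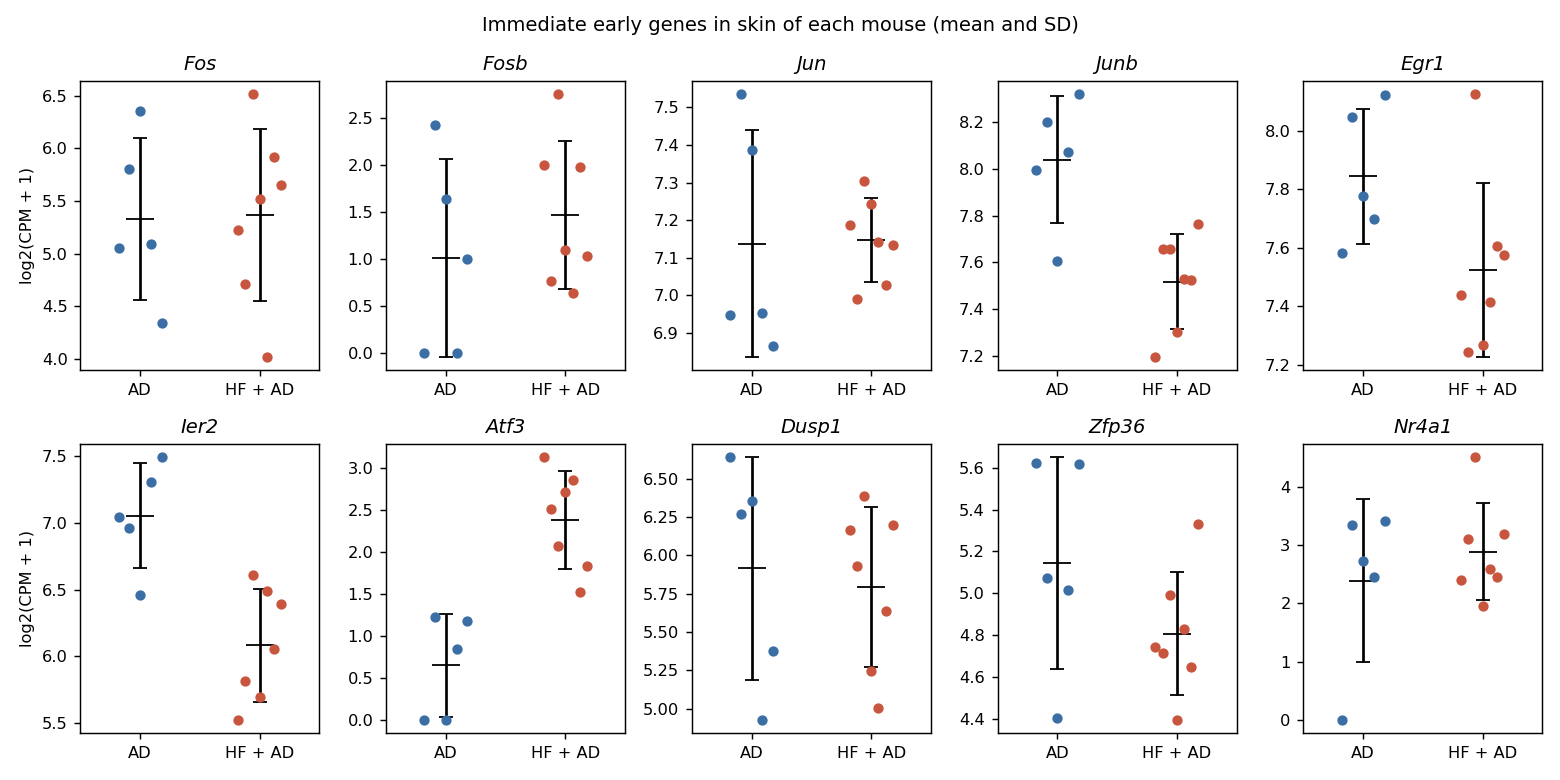
Level of each of the 10 immediate early genes as log2(CPM + 1), the y axis, in 5 AD and 7 HF + AD mice. Each point is 1 mouse, and the bar gives the mean and SD of the group. The y axis of each panel has its own range and does not start at 0 in most. Ier2 averaged 7.05 in AD and 6.08 in HF + AD mice, Junb 8.04 and 7.52. The AD values of Atf3, 2 of them at 0, stand for at most 1.17 estimated molecules per library.

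Ier2 (chromosome 8, 84661331 to 84662852, minus strand) encodes a small nuclear protein of the serum response. Its level in AD mice 1 to 5 was 131.0, 124, 87.2, 157 and 179 CPM. In HF + AD mice 1 to 7 it was 45.0, 55.3, 96.5, 50.9, 89.0, 65.3 and 82.8 CPM. Of the 5 AD mice, 4 lay above all HF + AD mice, and of the 7 HF + AD mice, 5 lay below all AD mice, so that the groups met only through AD mouse 3 and HF + AD mice 3 and 5. The mean was 136 ± 35.02 CPM (SD, n = 5) in the AD group and 69.3 ± 20.2 CPM (SD, n = 7) in the HF + AD group. The log2 fold change was −0.97 (standard error, SE, 0.21, edgeR adjusted p = 0.0119), which leaves 51.0% of the AD level. On the log2(CPM + 1) scale the exact permutation p was 0.00758. Without any 1 mouse the log2 fold change stayed between −1.10 and −0.84, and the adjusted p was at most 0.0317.

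Junb (chromosome 8, 84974484 to 84978718, minus strand) encodes an AP-1 subunit that restrains inflammation and proliferation in the epidermis. AD mice 1 to 5 had 254, 293, 194, 268 and 318 CPM. HF + AD mice 1 to 7 had 146, 201, 201, 157, 184, 183 and 217 CPM. AD mouse 3 was again the one AD mouse inside the HF + AD range, and the other 4 AD mice exceeded every HF + AD mouse. The mean was 265 ± 46.9 CPM (SD, n = 5) against 184 ± 25.3 CPM (SD, n = 7). The log2 fold change was −0.53 (SE 0.14, edgeR adjusted p = 0.0269), or 69.3% of the AD level, and the exact permutation p on the log2(CPM + 1) scale was 0.00631. Leaving out 1 of AD mice 2, 4 and 5 or of HF + AD mice 1 and 4 lost this call, where the log2 fold change was −0.52 to −0.44 and edgeR's adjusted p 0.0525 to 0.0679.

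Both genes lie on chromosome 8, have GC-rich transcripts (62.6% for Junb and 60.9% for Ier2), and had 585 to 3520 counts per library. After division of each library by its estimated counts per molecule, the log2 fold changes were −0.98 for Ier2 (adjusted p = 0.00903) and −0.52 for Junb (adjusted p = 0.0245). Division of a library by 1 number is a scaling that the fit takes out again. It therefore cannot show the part of library complexity in these fold changes. A GC correction removed each library's median deviation in bins of transcript GC content, on top of the TMM scaling. With it the log2 fold changes were −1.25 for Ier2 (adjusted p = 0.00378) and −0.83 for Junb (adjusted p = 0.00356). The median log2 fold change of all genes also moved, from 0.023 to −0.067, so these values carry a general shift. Marker levels of several cell types moved with the groups. The summed level of 6 basal and suprabasal keratinocyte markers was 3229 to 5108 CPM in AD and 5755 to 10240 CPM in HF + AD mice, led by Krt5, a keratin of the basal layer, with 3 of 6 called higher. For 10 skeletal muscle markers it was 1369 to 2951 CPM in AD and 901 to 2340 CPM in HF + AD mice, led by Acta1, with 2 called lower, and 6 sebocyte markers, led by Scd1, spanned 1975 to 3243 and 1396 to 2313 CPM, with 2 called lower. The lists did not move as 1. By sign, 5 keratinocyte markers were higher and 1 lower, 1 muscle marker was higher and 9 lower, and 1 sebocyte marker was higher and 5 lower. The suprabasal keratins Krt1 and Krt10, named after their values were seen, had log2 fold changes of 0.12 and −0.42 (edgeR adjusted p = 0.926 and 0.690). No marker of these 3 lists was at 0 in all mice. Genes were also called higher in the hair shaft (3 of 7) and endothelium (2 of 6) lists and lower in the pigment cell list (2 of 5), and no gene was called by edgeR in the other 8 marker lists. The part of cell composition in the lower levels of Ier2 and Junb was not tested, and in whole skin a smaller number of expressing cells and less RNA per cell cannot be told apart.

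Jun (chromosome 4, 95049034 to 95052222, minus strand), the partner most Fos proteins need to bind DNA, gave the smallest fold change of the 10. AD mice had 122, 185, 166, 123 and 116 CPM, and HF + AD mice 126 to 157 CPM with a median of 140 CPM. The HF + AD values all lay within the AD range. The log2 fold change was −0.013 (SE 0.14, edgeR adjusted p = 0.968), and its sign turned with library totals alone as the scaling (0.029). The ratio of Junb to Jun counts within a library, which needs no scaling, was 1.17 to 2.75 in AD mice (median 2.07) and 1.01 to 1.59 in HF + AD mice (median 1.31). For Ier2 to Jun it was 0.524 to 1.55 (median 1.07) and 0.311 to 0.634 (median 0.505). The groups overlapped in the first ratio through the low values of AD mice 2 and 3, and in the second through that of AD mouse 3.

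Fos (chromosome 12, 85473890 to 85477273, plus strand) varied widely within both groups. AD mice had 32.3, 55.0, 80.9, 33.1 and 19.3 CPM. HF + AD mice 1 to 7 had 36.5, 25.1, 90.6, 44.9, 15.2, 59.5 and 49.1 CPM. The lowest and the highest of the 12 mice were both in the HF + AD group, and the groups overlapped almost entirely. The means were 44.1 ± 24.3 CPM (SD, n = 5) and 45.8 ± 24.7 CPM (SD, n = 7), with a log2 fold change of 0.057 (SE 0.38, edgeR adjusted p = 0.951). Its sign turned with the GC correction (−0.10). On the log2(CPM + 1) scale its SD was 0.77 in the AD and 0.82 in the HF + AD group. The approximate confidence interval of its log2 fold change, taken from the SE, was −0.69 to 0.80. It held the value found for Junb (−0.53), so a difference of that size was not excluded for Fos.

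Fosb (chromosome 7, 19302696 to 19310051, minus strand), a close relative of Fos, was counted 0 to 42 times per AD library and 6 to 79 times per HF + AD library. This stands for 0, 4.35, 2.12, 0 and 0.995 CPM in AD mice, and for 0.562 to 5.72 CPM in HF + AD mice (median 1.13 CPM). The 5 AD libraries together held an estimated 3.63 molecules of it. Its log2 fold change of 0.54 (standard error 1.07, edgeR adjusted p = 0.805) was smaller than its error.

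Atf3 (chromosome 1, 191170296 to 191218039, minus strand) encodes a stress-induced factor that represses many inflammatory genes. It was counted 0, 13, 0, 9 and 14 times in AD mice 1 to 5, and 101, 61, 44, 64, 67, 23 and 34 times in HF + AD mice 1 to 7. These counts give 0, 1.35, 0, 0.795 and 1.27 CPM in AD mice and 7.78, 4.73, 3.19, 5.56, 6.27, 1.88 and 2.55 CPM in HF + AD mice. The HF + AD counts were all above the AD counts, but the AD counts stood for 0 to 1.17 estimated molecules per library and for 2.35 in the 5 libraries together, against 3.52 to 24.8 in each HF + AD library. A level of 0 in AD mouse 1 allows up to 8.26 CPM if 3 molecules are taken as the limit, and in AD mouse 3 up to 4.93 CPM. The first limit lies above the HF + AD range of 1.88 to 7.78 CPM and the second within it, so a separation of the groups was not established at this depth. In edgeR's fit the log2 fold change was 2.73 (standard error 0.92) and missed the threshold (adjusted p = 0.0714). It passed with DESeq2 (adjusted p = 0.0064, where 13.7% of all genes passed) and with limma-trend (adjusted p = 0.0164, where 11.0% did). Over 22 alternatives edgeR, limma and DESeq2 gave adjusted p-values between 0.0064 and 0.156. None of these fits allows for the number of molecules behind the counts, and Atf3 had too few counts to be tested once counts were divided by the counts per molecule.

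**Figure D2:**
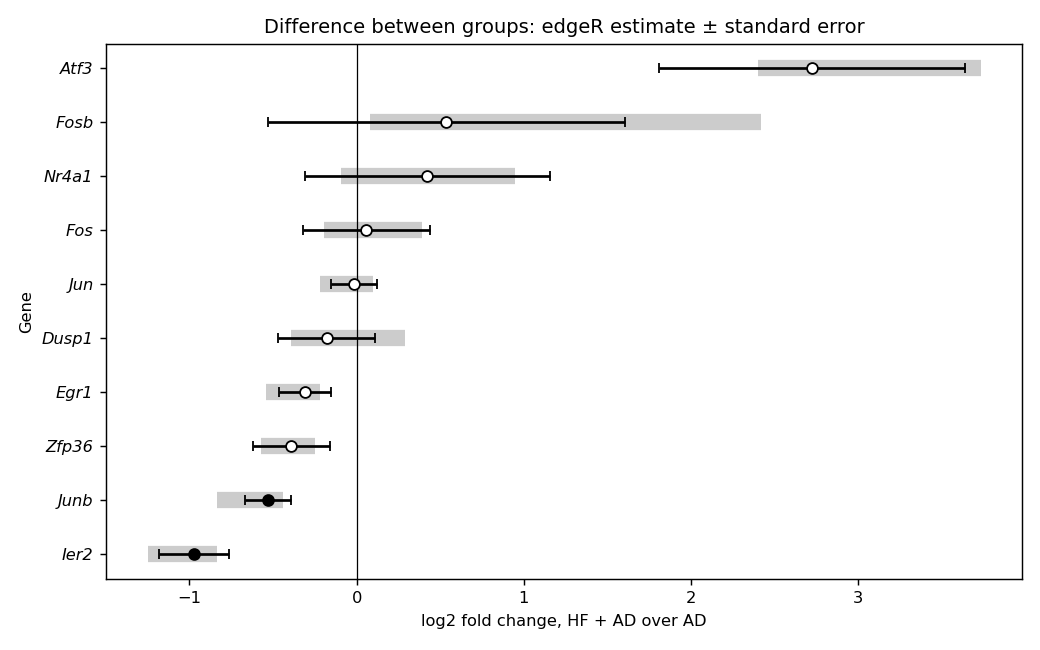
Log2 fold change of HF + AD over AD (x axis) for each of the 10 genes (y axis). Circles with bars give edgeR's estimate ± standard error, filled where the adjusted p was under 0.05, and the gray band runs from the lowest to the highest estimate over the alternative settings. Only Ier2 (−0.97) and Junb (−0.53) are filled, and the bands of Fos, Jun, Dusp1 and Nr4a1 cross 0.

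Egr1 encodes a zinc finger factor that is induced through serum response elements and drives genes of wound repair. AD mice had 190.5, 263, 218, 207 and 278 CPM, and HF + AD mice had 172, 151, 278.2, 153, 169, 194 and 189.8 CPM. HF + AD mouse 3 had the highest value of all 12, whereas 5 of the other 6 HF + AD mice lay below every AD mouse. The mean was 231 ± 37.5 CPM (SD, n = 5) against 187 ± 43.5 CPM (SD, n = 7), with a log2 fold change of −0.31 (SE 0.16, edgeR adjusted p = 0.237, exact permutation p on the log2(CPM + 1) scale = 0.0770). Without HF + AD mouse 3 the exact permutation p was 0.00433, while edgeR's adjusted p of 0.0584 still missed the threshold. Without any other 1 mouse the exact permutation p was 0.0515 to 0.167. With the GC correction the log2 fold change was −0.54 and passed (adjusted p = 0.0417, where 9.75% of all genes passed). That setting moved the median of all genes from 0.023 to −0.067, so this value also carries a general shift.

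Nr4a1 (chromosome 15, 101254269 to 101274795, plus strand), an orphan nuclear receptor that limits inflammatory responses of macrophages and T cells, had no read in AD mouse 1. A count of 0 in that library allows up to 3 counts, or 0.257 CPM before scaling, and up to 8.26 CPM if 3 molecules are taken instead. The other AD mice had 9.21, 5.65, 4.51 and 9.68 CPM, and HF + AD mice had 2.87 to 21.96 CPM with a median of 5.05 CPM. Its log2 fold change of 0.42 (SE 0.73, edgeR adjusted p = 0.770) became −0.092 without HF + AD mouse 3, which held the highest value.

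The inhibitors that close the response did not pass the test. Dusp1 (chromosome 17, 26505590 to 26562128, minus strand), a phosphatase that inactivates MAP kinases, measured 98.8, 76.2, 80.8, 29.4 and 40.6 CPM in AD mice. In HF + AD mice it spanned 31.1 to 82.7 CPM (median 60.0 CPM). Both groups held high and low mice, and the log2 fold change was −0.18 (SE 0.29, edgeR adjusted p = 0.756). Zfp36 (chromosome 7, 28376784 to 28380253, minus strand), also called tristetraprolin, binds AU-rich elements and marks cytokine mRNAs for decay. AD mice had 48.2, 32.7, 20.2, 31.4 and 48.0 CPM, and HF + AD mice had 20.1 to 39.3 CPM with a median of 25.8 CPM. AD mice 1 and 5 exceeded all HF + AD mice, and the log2 fold change was −0.39 (SE 0.23, edgeR adjusted p = 0.312). Without AD mouse 3, its lowest AD value, the exact permutation p on the log2(CPM + 1) scale was 0.0242, against 0.165 with all mice. Without any other 1 mouse this p was 0.0952 to 0.379. Without AD mouse 3 edgeR's adjusted p was 0.126.

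Among mice of 1 group, several of these genes were high in the same animal. In the HF + AD group, mouse 3 held the highest value of 7 of the 10 genes (Fos, Fosb, Jun, Egr1, Ier2, Dusp1 and Nr4a1) and the lowest of 0. HF + AD mouse 7 was highest for Junb and Zfp36, and HF + AD mouse 1 for Atf3. HF + AD mouse 5 held the lowest Fos, Fosb and Dusp1. In the AD group the highest values were spread over 4 mice, with Junb, Egr1, Ier2 and Nr4a1 highest in mouse 5, which held the lowest Fos and Jun. AD mouse 3 had the highest Fos and the lowest Junb, Ier2 and Zfp36. In HF + AD mouse 3 the summed level of skeletal muscle markers was 913 CPM, above mouse 7 alone of the HF + AD group, and those of fibroblast, mast cell and macrophage markers were among the 2 highest of the group, in each case below mouse 7. For 6 dermal fibroblast markers, led by Col1a1, mouse 3 had 8339 CPM and mouse 7 had 10275 CPM, where the other 5 had 3292 to 4607 CPM. For mast cell markers, led by Mcpt4, mice 3 and 7 had 281 and 289.9 CPM (102 to 176 CPM in the other 5), and for macrophage and dendritic cell markers, led by Cd74, 203 and 251 CPM (88.4 to 133 CPM). Mouse 7 was highest for 2 of the 10 genes. In the AD group, mouse 1 had the highest fibroblast sum (9883 CPM, with 3283 to 5269 CPM in the other AD mice). It also had the highest neutrophil sum, led by S100a8 (3697 CPM, with 201 to 355 CPM in the others), and the lowest sebocyte sum (1975 CPM). AD mouse 1 held the highest Dusp1 and Zfp36 and the lowest Egr1 and Nr4a1 of its group. The part of these cell types in the order of mice was not tested.

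**Figure D3:**
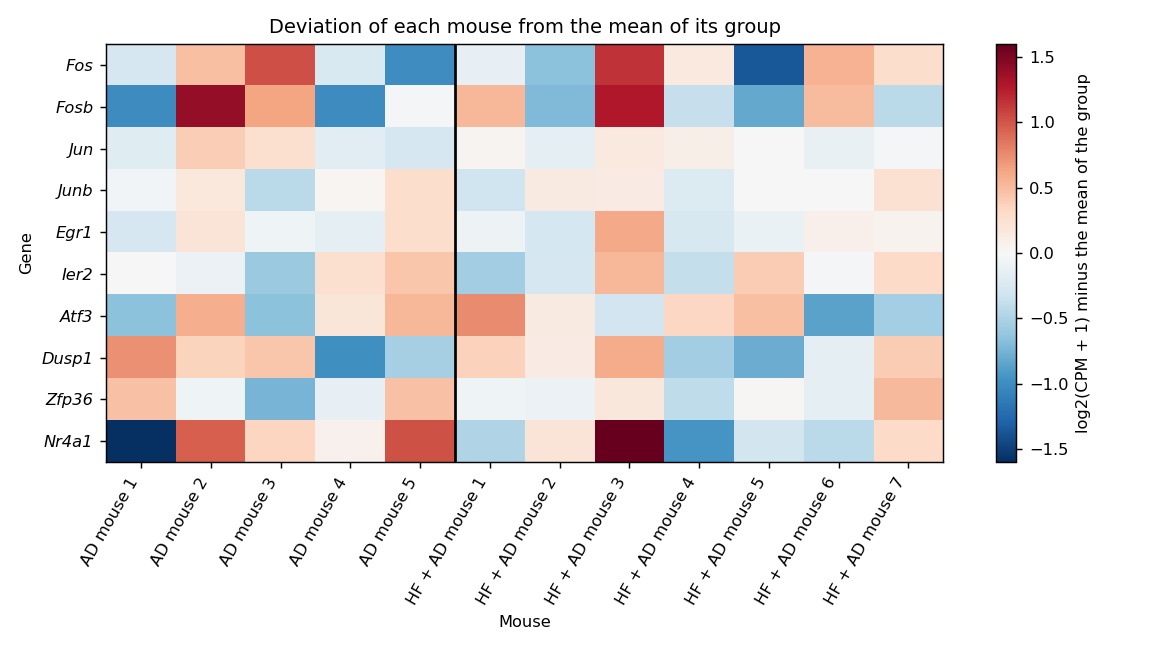
Deviation of each mouse (x axis) from the mean of its group, in log2(CPM + 1), for each of the 10 genes (y axis). Red is above and blue below the group mean, and a black line parts the 5 AD from the 7 HF + AD mice. HF + AD mouse 3 is highest of its group for 7 of the 10 genes, whereas no AD mouse is highest for more than 4.

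To see which genes followed Fos among mice, the mean of each group was taken out and Pearson's r was computed over the 12 mice for 13199 genes with a mean count of at least 20. The 5 genes most like Fos were Cd59a (r = 0.891), Cfap43 (0.855), Cox20 (0.839), Ube2b (0.834) and Tmem60 (0.833). Spearman's rho was 0.622 to 0.881 for these 5, and without HF + AD mice 3 and 5, farthest from the median of Fos, r was 0.730 to 0.908. Among so many genes and with 12 mice, values of this size are a description only. Fosb ranked 66 (r = 0.685), Jun 155 (0.621) and Dusp1 301 (0.560). Egr1 had r = 0.419, and 0.079 without those 2 mice. Over all 12 mice r was negative for Junb (−0.267), Ier2 (−0.253), Zfp36 (−0.353) and Atf3 (−0.537), with a median of −0.010 over all genes. For the first 3 of these the sign came from the 5 AD mice, where r was −0.760 for Junb, −0.942 for Ier2 and −0.871 for Zfp36. In the 7 HF + AD mice it was 0.137, 0.152 and 0.175. In the AD libraries all these values also carry the counting error of the few molecules estimated.

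Related genes were followed in 9 lists of 114 genes, of which 111 were tested and Egr4, Dusp5 and Spred2 had too few counts. Of these, 8 were higher (7.21%) and 7 lower (6.31%) in HF + AD skin after adjustment, against 4.43% and 4.77% of all genes tested. No called gene of these lists changed its sign in any alternative setting.

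Of the other 10 AP-1 and small Maf genes, none passed edgeR's adjusted threshold, and Mafk was the 1 gene with an unadjusted p under 0.05. The list had a median log2 fold change of 0.32, with 8 of 10 higher by sign. Mafk, named after its values were seen, had a log2 fold change of 0.76 (edgeR adjusted p = 0.136). Of the list's genes with most counts, Fosl2, a Fos relative, averaged 331 CPM in AD and 301 CPM in HF + AD mice (edgeR adjusted p = 0.625). Jund, the third Jun family member, averaged 64.1 and 77.7 CPM (edgeR adjusted p = 0.473). Of the Egr and Nr4a relatives and Nab co-repressors, 6 of 7 were tested and 2 were higher. Nr4a2, a relative of Nr4a1, was called higher (log2 fold change 1.5, SE 0.43, edgeR adjusted p = 0.0381). It had 24 to 78 counts in AD and 71 to 332 counts in HF + AD libraries. Its AD mean of 3.99 CPM lies within the 3.17 to 8.99 CPM that 3 molecules stand for in AD libraries. The part of few molecules in this call was not tested. Nab2, a co-repressor that binds Egr1, had a log2 fold change of 0.66 (SE 0.18, edgeR adjusted p = 0.0320). The adjusted p stayed under 0.05 in 13 of 24 alternatives for Nr4a2 and in 12 of 24 for Nab2. Over 4 alternative scalings the log2 fold change of Nab2 ran from 0.37 to 0.70 and that of Nr4a2 from 1.38 to 1.54, each called in 3.

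Among 12 tested MAP kinase phosphatases and feedback inhibitors, Spry2 alone was lower, with a log2 fold change of −0.78 (SE 0.20, edgeR adjusted p = 0.0256), and kept its call in 18 of 24 alternatives. Spry2 inhibits growth factor signaling upstream of MAP kinases. No gene of the mRNA decay list passed edgeR's adjusted threshold. An unadjusted p under 0.05 was found in 2 of 5, as in 25.1% of all genes. These were Zfp36l1 and, named after its values were seen, Btg2 (log2 fold change 0.38, edgeR adjusted p = 0.187). Of the list's genes with most counts, Zfp36l1, a relative of Zfp36, had a log2 fold change of 0.38 (adjusted p = 0.134) and Btg1 of 0.063 (adjusted p = 0.792).

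Of 30 other rapidly induced genes, 4 were higher and 2 lower, with a median log2 fold change of 0.085. Cyr61 and Ctgf had the highest log2 fold changes of the called genes. They are matricellular genes that respond to tension and to the YAP and serum response factor pathways. Cyr61 had 37 to 90 counts in AD and 103 to 451 counts in HF + AD libraries (log2 fold change 1.63, SE 0.37, edgeR adjusted p = 0.0139). Its AD mean of 5.71 CPM also lies within the 3.17 to 8.99 CPM that 3 molecules stand for in AD libraries. The part of few molecules in the call of Cyr61 was not tested. Ctgf had 99 to 333 and 277 to 1058 counts (log2 fold change 1.47, SE 0.30, edgeR adjusted p = 0.00960). The other 2 higher genes, named after their values were seen, were Plk3, a stress-responsive kinase (1.04), and Klf6, a zinc finger factor (0.77). The 2 lower genes were Nfkbiz and Nfkbia. Nfkbiz, a nuclear co-regulator of NF-κB in keratinocytes, had a log2 fold change of −0.76 (SE 0.16, edgeR adjusted p = 0.0113), and Nfkbia, the inhibitor IκBα, of −0.43 (standard error 0.12, adjusted p = 0.0289 from edgeR). Of 24 alternatives, the call held in 22 each for Cyr61 and Ctgf, 23 each for Plk3, Klf6 and Nfkbiz, and 17 for Nfkbia.

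Of 18 upstream kinases and serum response factors, only Mapk8, which encodes the Jun kinase JNK1, passed. It had 788 to 988 counts in AD and 473 to 798 counts in HF + AD libraries (log2 fold change −0.80, SE 0.16, edgeR adjusted p = 0.00960). The call held in 23 of 24 alternatives.

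Of 11 heat shock genes, 2 were higher and 1 lower. Hspb1, which encodes a small heat shock protein of differentiating keratinocytes, had 553 to 1617 counts in AD and 1933 to 11183 counts in HF + AD libraries (log2 fold change 2.26, SE 0.34, edgeR adjusted p = 0.00331). Hspa1a, an inducible Hsp70 gene whose reads can be shared with its near copy Hspa1b, had a log2 fold change of 0.67 (adjusted p = 0.0314 from edgeR), and Hspd1, the mitochondrial chaperonin, of −0.45 (adjusted p = 0.0458). Of 24 alternatives, the call held in 24 for Hspb1, 12 for Hspa1a and 11 for Hspd1. Over 4 alternative scalings the log2 fold change of Hspa1a ran from 0.45 to 0.71, called in 3. Of 12 low-oxygen response genes, Ndrg1 (−0.66, adjusted p = 0.0310) and Ldha (−0.50, adjusted p = 0.0381) were lower and none was higher by edgeR's test, and these calls held in 16 and 13 of 24 alternatives. Of 7 glucocorticoid response genes, 0 passed edgeR's adjusted threshold and 0 had an unadjusted p under 0.05. There Mt2 averaged 1128 CPM in AD and 1244 CPM in HF + AD mice (adjusted p = 0.602) and Mt1 1083 and 1139 CPM (adjusted p = 0.784).

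**Figure D4:**
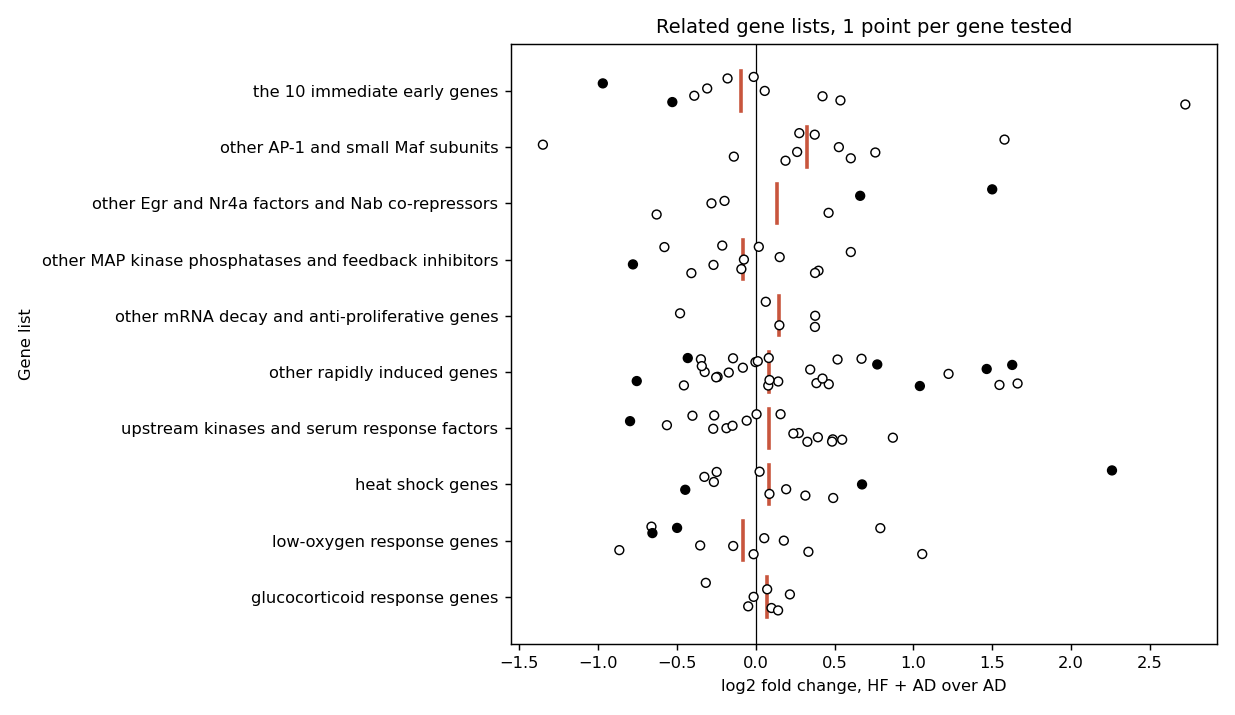
Log2 fold change of HF + AD over AD (x axis) for each gene tested in the 10 immediate early genes and the 9 related lists (y axis). Each circle is 1 gene, filled where edgeR's adjusted p was under 0.05, and the red line is the median of the list. Medians lie between −0.096 and 0.32, and Hspb1 at 2.26 is the called gene farthest from 0.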

How the data were processed

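Skin mRNA of 5 AD and 7 HF + AD mice was sequenced with the QuantSeq 3′ kit, and groups were taken from the sample labels. The deposited values are whole-number read counts for each gene symbol, not normalized by the authors. Bowtie2, bedtools and the build mm10 are named in the submitters' processing notes, and duplicate removal is not given in the sources used here. The table holds 23282 entries, 35 symbols more than once, each kept on its own.

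Counts were scaled by TMM, filtered by filterByExpr and tested with edgeR 4.0.16 (R 4.3.3, quasi-likelihood, group as the only term, threshold 0.05, 14163 genes). Standard errors are the absolute log2 fold change divided by the square root of the F statistic. Alternatives used limma 3.58.1 and DESeq2 1.42.0, other steps Python 3.11.15, NumPy 2.4.6, SciPy 1.17.1 and matplotlib 3.10.9. Log2 values used a pseudocount of 1. Counts per molecule were estimated from how many genes had no read in a library although the rest of its group predicted 10 to 200 counts. This takes every such absence as sampling, so real differences between mice of a group would also raise the estimate. Since no molecular identifiers are described, limits from a count of 0 (3 counts) cover counting error only. No 2 libraries of a group agreed within the sampling noise of reads (noise from sampling molecules was not tested). Cages and days are not labelled, so p-values measure the spread between these mice. Positions and transcript GC content are from GENCODE M21 (GRCm38), promoters from RefSeq (GRCm38.p6), where entries of 8 of the 10 genes were used. The steps were tested on simulated counts, which did not imitate the few molecules of the AD libraries.

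The 10 genes and all lists were chosen with earlier results of these data known. Named were the 10 genes, up to 2 called genes per direction and list (or those with most counts), the 5 genes most like Fos, and the most abundant gene of each marker list given. Others are marked in the text.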

Additional observations from a re-analysis of the deposited data

Results flagged for a closer look

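A value far from the others of its group was found 2 times among 20 sets of values (10 genes in each of the 2 groups), where chance gives about 1 in 20. Egr1 was highest in HF + AD mouse 3, at 8.12 on the log2(CPM + 1) scale, with a gap to the next mouse of 0.590 of the range of the group. This mouse also held the highest value of 6 other genes of the 10. Nr4a1 was at 0.0 in AD mouse 1, with a gap of 0.720 of the range. That library had 32.2 counts per molecule by the estimate, the most of the 12, and 4.51 to 9.68 CPM of Nr4a1 were found in the other AD mice. The part of library complexity in this value was not tested.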

How the results depend on the processing

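Of the 10 genes, 2 passed the adjusted threshold, and 1303 of all genes (48.1% of them higher). With the replicate number as a block these became 0 and 192, with adjusted p = 0.0596 for Ier2 and 0.0915 for Junb. The numbers do not pair the mice: deviations of same-numbered mice correlated between −0.106 and 0.0724, and 1 of 5 AD mice was closest to its own number. Sample quality weights gave 766 genes. Without AD mice 1 and 2 together, an alternative chosen after seeing the data, 1 of the 10 passed. Without 1 mouse, 1 to 2 of the 10 and 639 to 1461 genes passed, the fewest without HF + AD mouse 2 (639), HF + AD mouse 1 (686), HF + AD mouse 4 (794) and AD mouse 2 (803). The share of higher genes was 58.9% with library totals alone and 30.8% with the GC correction. The GC correction was added to the TMM scaling and moved the median log2 fold change of all genes to −0.067. Ier2 kept its direction in all 24 alternatives and its call in 23, and Junb its call in 17 of 24.

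The sign of genes that did not pass turned as follows. Fos had −0.13 with the block and −0.10 with the GC correction, −0.19 to 0.39 without 1 mouse, and −0.21 to 0.29 as a difference of log2(CPM + 1). Jun had 0.029 with library totals alone, 0.0089 with limma-trend, 0.076 with quality weights, 0.036 with the block, 0.014 with counts per molecule and 0.065 without AD mice 1 and 2, −0.068 to 0.099 without 1 mouse, and −0.060 to 0.11 as a difference. Dusp1 had 0.29 with quality weights and 0.20 without AD mice 1 and 2, −0.36 to 0.028 without 1 mouse, and −0.37 to 0.062 as a difference. Nr4a1 had −0.092 to 0.70 without 1 mouse, −0.51 as a difference in mean ranks, and −0.100 to 0.75 as a difference. The cause was not tested. With a minimum of 10 counts in every mouse Fosb, Atf3 and Nr4a1 were not tested, nor Fosb and Atf3 with counts per molecule. By the estimate, the 5 AD libraries together held 3.63 molecules of Fosb, 2.35 of Atf3 and 19.5 of Nr4a1. The part of few molecules in their values was not tested.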
